A study of Rangifer tarandus with 8 samples.

Results

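The matrix metalloproteinase genes MMP1, MMP3, MMP7, MMP8, MMP12, MMP13, MMP20 and MMP27 were taken from the gene annotation of the cattle assembly ARS-UCD1.2, as protein coding gene records whose first symbol was one of these 8. All 8 were found, among 21861 protein coding genes and 27607 genes of any kind. The genes were chosen by name, and what follows describes how they are annotated. The accessibility of these genes was not analysed here, so no value below belongs to a tissue, a time or an animal.

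The annotation was deposited with a single-cell ATAC-seq study of adult reindeer (Rangifer tarandus) skin, in which a transposase marks open DNA in each cell. Its 8 libraries came from velvet, the skin of the antler, and from back skin, each unwounded (day 0) or 7 days after a full-thickness excision of 12 mm, and from velvet grafted onto the back and taken 6 weeks (2 animals), 3 months or 6 months later. The labels name no genotype or drug. Each of the 7 groups was 1 library except the 6-week grafts, and the labels gave 1006 to 20002 recovered cells per library. The cells were dermal, since the epidermis was removed before digestion, and reindeer reads were aligned to cattle, so every position is a cattle position.

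Matrix metalloproteinases are zinc-dependent enzymes that cut proteins of the extracellular matrix. Most are made as inactive proenzymes with a signal peptide, a propeptide, a catalytic domain and a C-terminal hemopexin domain, and tissue inhibitors (TIMPs) block the active enzyme. In skin they are known for clearing and remodelling matrix during wound repair. MMP1, MMP8 and MMP13 are collagenases that cleave fibrillar collagen. MMP3 (stromelysin-1) cleaves several matrix proteins and activates other proenzymes, MMP12 is the macrophage elastase, MMP7 (matrilysin) is a short enzyme of epithelia, MMP20 (enamelysin) works in tooth enamel, and MMP27 is a less studied relative.

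The 8 genes formed a single cluster near the start of chromosome 15, from 5670942 to 6153615. All 8 lay on the plus strand, in the order MMP13, MMP12, MMP3, MMP1, MMP8, MMP27, MMP20 and MMP7. The collagenase genes were therefore not all next to each other: MMP13 opened the cluster, and MMP1 and MMP8 stood in its middle as neighbouring members. The cluster spanned 483 kb, of which the gene bodies of the members covered 27.0% and their coding exons 2.25%.

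**Figure D1:**
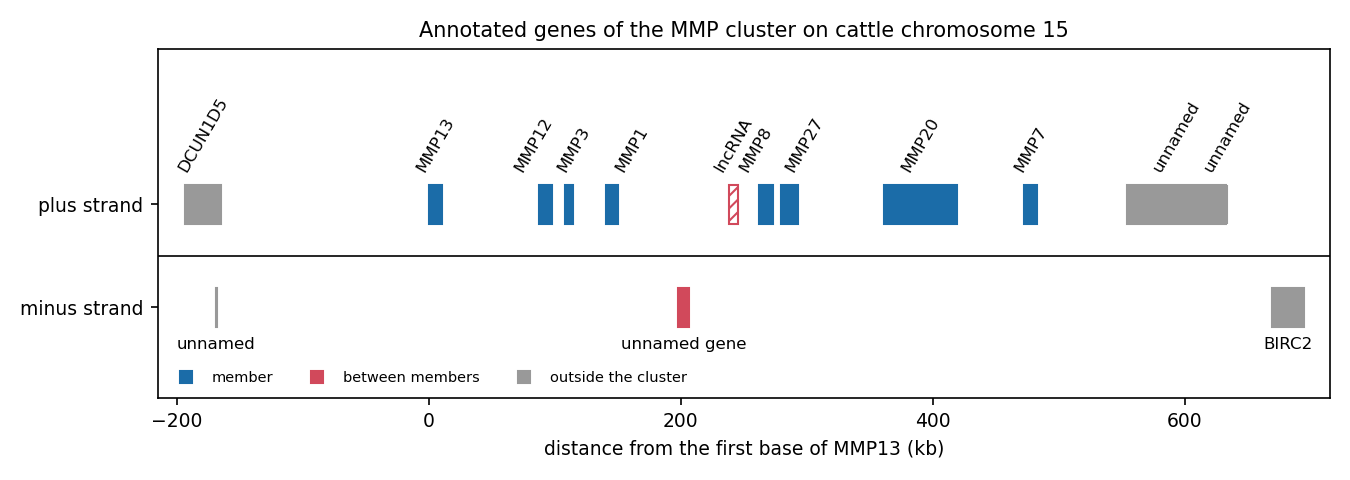
Map of the annotated genes from DCUN1D5 to BIRC2, with distance from the first base of MMP13 in kb on the x axis and the strand on the y axis. Filled boxes are protein coding genes and the hatched box is a long noncoding RNA gene. The 8 members sit on the plus strand, and the unnamed coding gene between MMP1 and MMP8 sits on the minus strand.

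The left arm of the cluster held the collagenase genes MMP13 and MMP1, with the elastase and stromelysin genes between them. MMP13 (ENSBTAG00000015059) ran from 5670942 to 5681601, and 76.9 kb of sequence with no coding gene separated it from MMP12. MMP12 (ENSBTAG00000053542) ran from 5758546 to 5768904, and MMP3 (ENSBTAG00000037768) followed after 10.3 kb, from 5779177 to 5785763. MMP1 (ENSBTAG00000048029) lay 25.8 kb farther on, from 5811583 to 5820952. MMP12, MMP3 and MMP1 thus made a tight group, whereas MMP13 stood apart from them.

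The right arm began after the widest gap of the cluster, 112 kb between MMP1 and MMP8. MMP8 (ENSBTAG00000046732) ran from 5933094 to 5944195, and MMP27 (ENSBTAG00000040567) followed after the shortest gap, 6.40 kb, from 5950595 to 5964239. MMP20 (ENSBTAG00000014251) ran from 6031820 to 6089843, 67.6 kb beyond MMP27. MMP7 (ENSBTAG00000004594) closed the cluster from 6143194 to 6153615, 53.4 kb beyond MMP20. The longest gap was 17.5 times the shortest, and the median of the 7 gaps was 53.35 kb.

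A single further protein coding gene lay inside the cluster, in the gap between MMP1 and MMP8. It had no symbol (ENSBTAG00000015818, 5868388 to 5877633), as had 19.5% of all coding genes. It was on the minus strand, so its 3' end faced the 3' end of MMP1 across 47.4 kb, and 55.5 kb separated it from MMP8. The other gene in this gap was a long noncoding RNA gene on the plus strand (ENSBTAG00000051520, 5909414 to 5916178). Of the 8 pairs of neighbouring coding genes from MMP13 to MMP7, 6 lay on the same strand, and both exceptions involved the unnamed gene. Across the annotation 51.0% of neighbouring coding pairs did.

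The exons of the unnamed gene had the lengths of those of MMP1. Both genes had 10 coding exons, and all 10 were equal in length and stood in the same order. In transcript order they held 105, 245, 149, 126, 156, 118, 134, 163, 104 and 107 bases, 469 codons in all. Their 3' UTRs also had the same annotated length, 603 bases, whereas the 5' UTR was 55 bases in MMP1 and 11 bases in the unnamed gene. Of the 7137 coding genes with at least 10 coding exons, 33 (0.462%) had the same ordered coding-exon lengths as another coding gene, and 19 of these had that partner within 100.0 kb on the same chromosome, MMP1 and the unnamed gene among them.

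The introns were nearly equal in length as well. The introns between coding exons differed by 100 bases in sum over 9 introns, and introns 2, 5 and 9 had no difference. The largest difference was in intron 4, with 1003 bases in MMP1 and 934 in the unnamed gene. Each of the 9 introns was within 10% of its counterpart in MMP1. Among the 15 pairs that can be formed from the 6 members with 10 coding exons, at most 3 of 9 introns came that close. The file gives no sequence, so how alike the sequences of MMP1 and the unnamed gene are, and whether fragments could be placed at both, was not analysed here.

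Outside the cluster, the nearest named coding genes were DCUN1D5 on the left and BIRC2 on the right. DCUN1D5, which encodes a protein of the cullin neddylation machinery, ended 165 kb before MMP13. BIRC2, which encodes an inhibitor of apoptosis, began 187 kb after MMP7 on the minus strand. Unnamed coding genes lay nearer on the right, where ENSBTAG00000049233 began 71.6 kb after MMP7 on the same strand. It was followed by the single-exon gene ENSBTAG00000052956. The single-exon gene ENSBTAG00000050505 lay within the bounds of DCUN1D5, on the opposite strand. Counted over its own span, the cluster held 18.6 coding genes per Mb, against 11.7 on chromosome 15 and 8.38 on the autosomes. A span bounded by genes gives a high density by construction, so this was read as a description only.

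Gene lengths were alike in all members but MMP20. In order of length, MMP3 held 6.59 kb, MMP1 9.37 kb, MMP12 10.4 kb, MMP7 10.4 kb, MMP13 10.7 kb, MMP8 11.1 kb and MMP27 13.6 kb. MMP20, the enamelysin gene, held 58.0 kb, 4.25 times as much as MMP27 and 8.81 times as much as MMP3. The median was 10.5 kb, and 7 of the 8 members were shorter than the median coding gene of the annotation, 14.04 kb. On chromosome 15 itself the median coding gene held 5.71 kb, less than the shortest member. Without MMP20 the longest member was 2.07 times the shortest.

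The extra length of MMP20 lay in its introns. Its coding sequence, 481 codons, lay within the range of the members, 276 to 510 codons, but introns made up 96.4% of its body. Intron 6 alone held 18.99 kb and intron 8 another 17.1 kb, each longer than any other whole member. In the other members introns made up from 72.8% of the body (MMP3) to 87.3% (MMP8). Over all coding genes the median was 82.4%, with 5 members above it and 3 below.

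**Figure D2:**
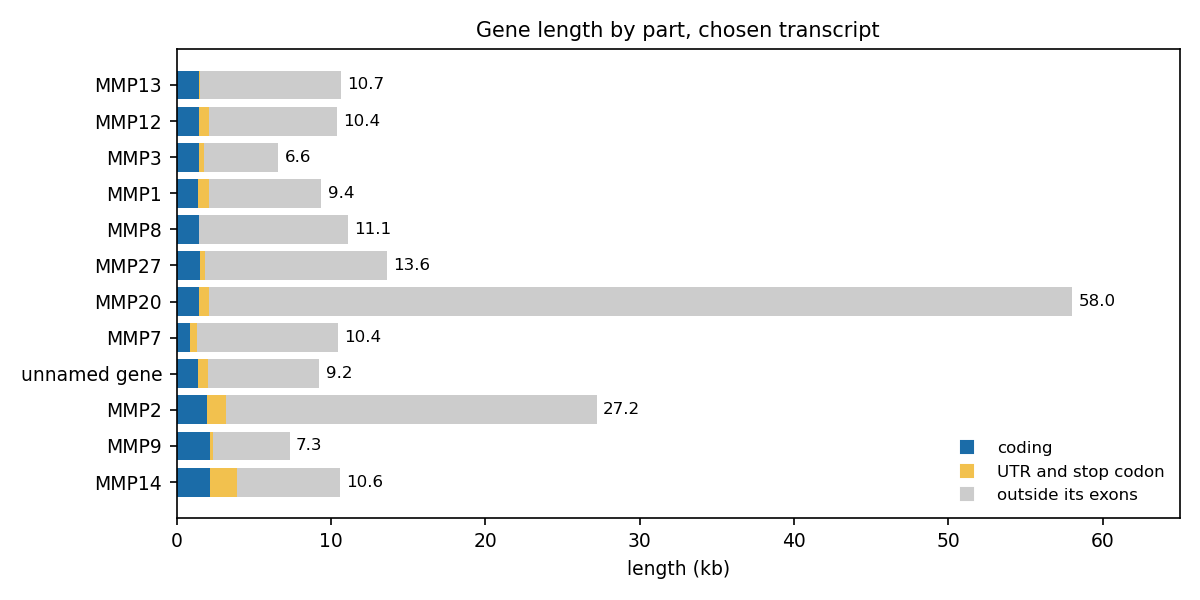
Gene length in kb on the x axis for the 8 clustered genes, the unnamed gene and the references MMP2, MMP9 and MMP14. Each bar is split into coding bases, UTR with stop codon, and bases outside the exons of the chosen transcript. MMP20 reaches 58.0 kb with a coding part of 481 codons.

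Exon number was 10 in 6 of the 8 members: MMP13, MMP3, MMP1, MMP8, MMP27 and MMP20. Every exon of these genes held coding sequence. Across the annotation, 3.74% of coding genes had 10 coding exons in the chosen transcript, the transcript with the longest coding sequence. MMP12 had 11 exons and MMP7 had 6. The coding lengths ran from 469 codons in MMP1 to 510 in MMP27, apart from MMP7 with 276. Each member had 1 annotated transcript with a start and a stop codon, as 62.3% of all coding genes had a single transcript.

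In the 6 members with 10 coding exons, exons 2 to 5 and 7 to 9 differed by at most 9 bases between genes, and exons 1, 6 and 10 by more. Exon 3 held 149 bases and exon 9 held 104 bases in all 6. Exon 2 ranged from 239 to 248 bases, exon 4 from 126 to 129, exon 5 from 156 to 165, exon 7 from 131 to 137 and exon 8 from 154 to 163. Exon 6 took 118 bases in 4 genes, 142 in MMP20 and 145 in MMP3. Exon 1, which holds the start codon, ranged from 99 to 120 bases. At all 10 positions the differences between genes were whole codons.

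The last exon set MMP27 apart from the other members. It held 239 coding bases in MMP27 against 98 in MMP13, MMP3 and MMP20 and 107 in MMP1 and MMP8. Its exons 1, 2 and 7, by contrast, were the shortest of the 6 genes.

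**Figure D3:**
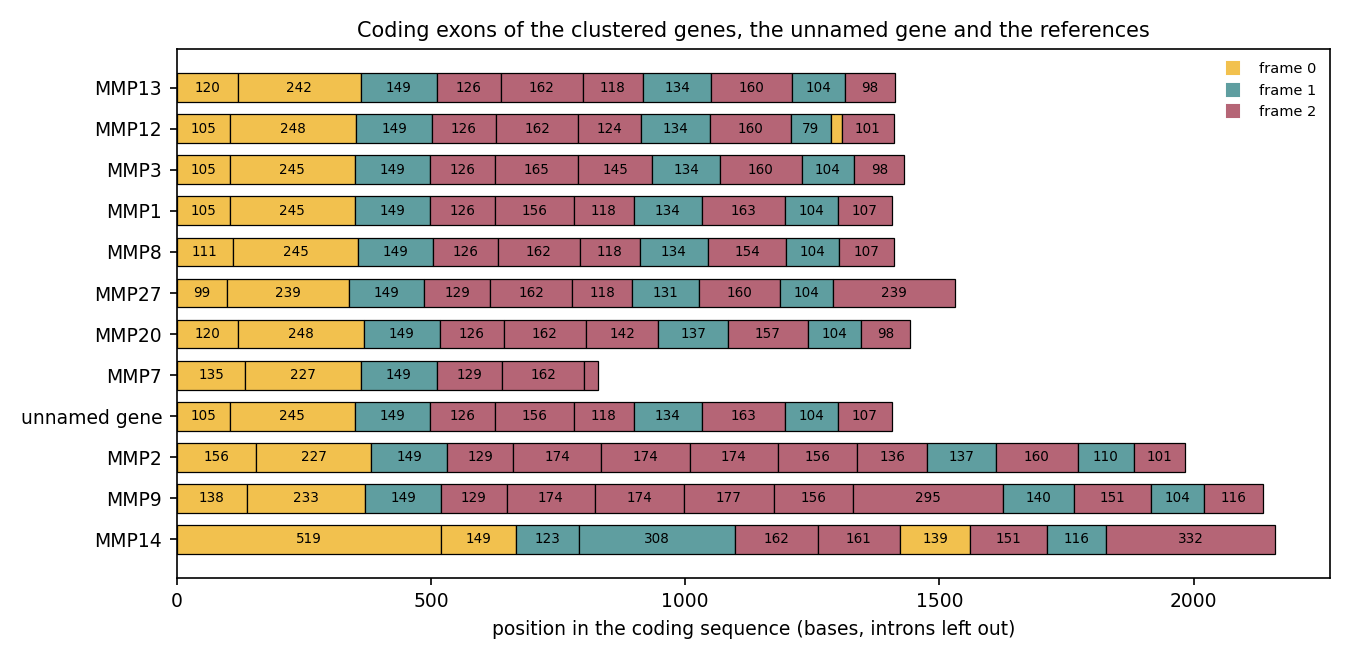
Coding exons drawn to scale in transcript order, with the position in the coding sequence in bases on the x axis and 1 gene per line; numbers are exon lengths and colours give the frame, the number of bases at the start of an exon that finish the codon begun before it. Most clustered genes repeat a similar series of blocks, MMP7 stops at exon 6, and MMP2 and MMP9 hold 3 extra blocks.

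The reading frame broke at the same places, which follows from exon lengths that differ by whole codons and is no separate likeness. Frame here is the number of bases at the start of an exon that complete the codon begun in the exon before. All 6 genes with 10 coding exons had frames 0, 0, 1, 2, 2, 2, 1, 2, 1 and 2. Of the 817 coding genes in the annotation with 10 coding exons, 7 had this series: these 6 and the unnamed gene. For the unnamed gene this follows from exon lengths equal to those of MMP1. The first 6 frames of MMP7 and the first 9 of MMP12 were also the same.

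MMP12 departed from the frame series at a single point. In length, its exon 6 (124 bases) and its last exon (101 bases) also equalled those of none of the 6 genes with 10 coding exons. Its coding exons 9 and 10 held 79 and 22 bases and were separated by an intron of 2 bases. Together with that intron they covered 103 bases, where exon 9 of the 6 genes with 10 coding exons covered 104. Introns under 10 bases occurred in the chosen transcripts of 0.650% of all coding genes, and MMP12 was the only member with such an intron. Its count of 11 exons thus rests on this 2-base interval.

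MMP7 followed the frames of the others over its 6 exons, with a longer exon 1 (135 bases) and a shorter exon 2 (227 bases) than any other member. Over all 8 members, exon 1 ranged from 99 to 135 bases, exon 2 ranged from 227 to 248 bases, exon 4 from 126 to 129 and exon 5 from 156 to 165, and exon 3 held 149 bases in each. The sixth and last coding exon of MMP7 held 26 bases. Matrilysin is known as the enzyme of this group without a hemopexin domain, which the later exons encode in the other genes.

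Introns at the same positions differed widely in length. Within the 6 genes with 10 coding exons, the longest exon was at most 1.23 times the shortest at exons 1 to 9, and 2.44 times at exon 10. For introns this ratio ran from 4.50 at intron 7 to 89.7 at intron 1, where MMP13 had 89 bases and MMP20 had 7981. The median ratio was 1.05 over 10 exons and, with MMP20 included, 25.6 over 9 introns. MMP20 had the longest intron at 7 of the 9 positions, so the ratios there include this gene, and they were not computed without it. At intron 1 the next longest held 1664 bases (MMP8). At intron 6 MMP20 had 18992 bases and the next longest 2562 (MMP1). At intron 3 MMP20 had 2343 bases and the others from 86 to 239, and at intron 8 it had 17053 and the others from 491 to 1811. The distance was smaller at intron 5, with 2728 bases in MMP20 and 2311 in MMP8. At introns 4 and 7, where MMP20 was neither the longest nor the shortest, the ratios were 12.7 and 4.50.

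**Figure D4:**
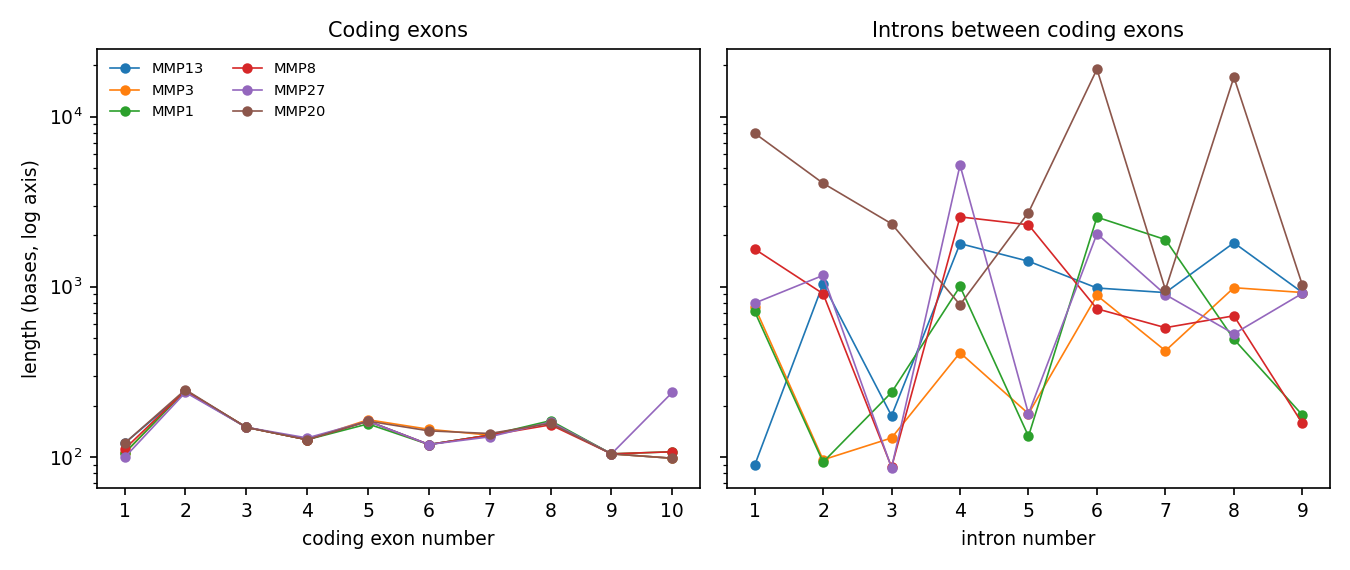
Length in bases on a log axis of each coding exon (left) and each intron between coding exons (right) for MMP13, MMP3, MMP1, MMP8, MMP27 and MMP20, 1 line per gene. The exon lines lie close together except at exon 10, where MMP27 is higher. The intron lines, with MMP20 included, spread over more than a factor of 10 at most positions.

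Counting the coding exons of equal length in the same order gave a measure of likeness between members. MMP1 and MMP8, both collagenase genes and neighbours among the members, shared 7 lengths, the most of the 28 pairs. The collagenase genes MMP13 and MMP1 shared 5, and MMP8 and MMP27, the members with the shortest gap, shared 4. MMP13 shared 6 lengths with each of MMP3, MMP8 and MMP20, and MMP3 shared 6 with MMP1. MMP27 shared from 3 to 5 with the other members. MMP7 shared from 1 to 3, with MMP27 the highest. The median over the 28 pairs was 4 shared lengths, and without MMP7 the lowest of 21 pairs was 3.

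**Figure D5:**
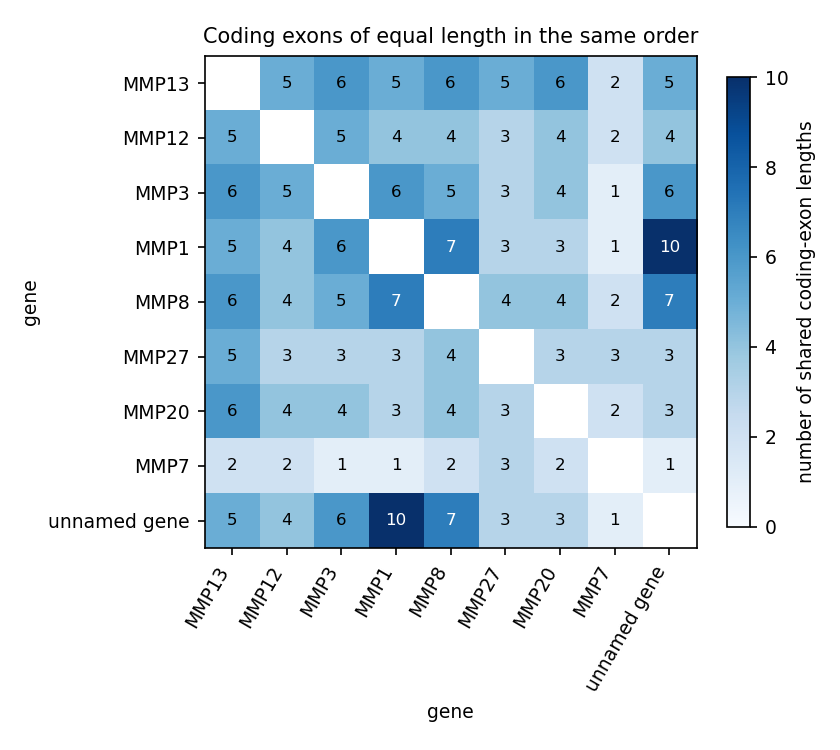
Number of coding-exon lengths that each pair of genes shares in the same order, with genes in chromosome order on both axes and the unnamed gene last; darker cells share more. MMP1 and the unnamed gene share 10, MMP1 and MMP8 share 7, and MMP7 shares at most 3 with any other gene shown.

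Other coding genes were searched with the same measure. The least alike members shared a single length, and 11903 of 21853 other coding genes shared at least that with a member, so this limit separated nothing. With limits raised after the counts had been seen, 628 genes shared at least 3 lengths, 85 at least 4 and 7 at least 5. Of these 7 genes, the unnamed gene shared all 10. The other 6, TRIP12, DOCK2, DYNC1H1, MYCBP2, LRP1B and RYR2, shared 5 each but had from 40 to 102 coding exons, so that 4.90% to 12.5% of their exons matched. These names were chosen after their values were seen.

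The references lay on other chromosomes and far from other genes of the family. MMP2 (ENSBTAG00000019267, chromosome 18, 23752891 to 23780118) and MMP9 (ENSBTAG00000020676, chromosome 13, 74746976 to 74754303), both on the plus strand, encode the gelatinases. MMP14 (ENSBTAG00000014824, chromosome 10, 21967557 to 21978162), on the minus strand, encodes a membrane-bound enzyme that activates the MMP2 proenzyme. The nearest other MMP gene was MMP15 for MMP2, 2.16 Mb away with 48 coding genes between, and MMP24 for MMP9, 10.2 Mb away with 150 between. No other MMP-named gene was annotated on chromosome 10.

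Gene length did not set the references apart as a group. MMP9 held 7.33 kb, MMP14 10.6 kb and MMP2 27.2 kb, within the range of the members, and the ratio of the medians was 1.01. Coding sequences were longer, at 661 codons in MMP2, 712 in MMP9 and 720 in MMP14, all above the 510 codons of MMP27. The ratio of the median coding lengths was 1.51. With 3 references and genes that share descent, no test was made.

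MMP2 and MMP9 had 13 coding exons, 3 more than most members. Taking out coding exons 5 to 7, of 174, 174 and 174 bases in MMP2 and 174, 174 and 177 in MMP9, left the frame series of the members. Neighbouring exons share a frame, so any 3 consecutive exons starting at exon 4, 5, 6 or 7 could be taken out with the same outcome. The gelatinases are known to carry 3 fibronectin type II repeats in the catalytic domain. MMP14 had 10 coding exons, and its frames equalled those of the members at 8 of the 10 and differed at exons 4 and 7. A coding exon of 149 bases was present in all 3 references, as in all 8 members, and in 3.74% of all coding genes.

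For single-cell ATAC data, Signac by default scores a gene by the fragments over its body plus 2 kb upstream. None of the 8 members had such a window that overlapped the window of another coding gene, against 30.1% of all coding genes. Among the references, the window of MMP14 overlapped that of a neighbour, since MRPL52, a mitochondrial ribosomal protein gene, lay 1.28 kb upstream. Free sequence upstream of the members ran from 6.40 kb (MMP27) and 10.3 kb (MMP3) to 165 kb (MMP13). Fragments in the gaps beyond these windows are not added to any member under this scheme.

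Where a window begins depends on where the annotation puts the start of the gene. A 5' UTR was annotated in 5 of the 8 members, against 60.4% of all coding genes. It held 255 bases in MMP7, 55 in MMP3, 55 in MMP1, 19 in MMP27 and 4 in MMP20. MMP13, MMP12 and MMP8 had none, so their windows are measured from the start codon. MMP8 had no annotated 3' UTR either. Exons made up from 3.51% of the window in MMP20 to 20.9% in MMP3, and the median over the members was 11.9%.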

How the data were processed

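A single file was used, the gene annotation deposited with the series by the authors; per the file headers it belongs to ARS-UCD1.2. It gives start and end positions of genes, transcripts and exons, counted from 1. Reads were aligned to cattle and matrices handled with Signac 1.2.1, per the series text. The submitters' processing notes name Cell Ranger ATAC and Cell Ranger, with versions not given in the sources used here. Peaks, fragments and depth per cell were not analysed here.

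Genes were matched by the first name field. For each gene the transcript with the longest coding sequence was used (ties went to the longer transcript, then the identifier), with the stop codon left out of coding lengths. Shared exon lengths are the longest ordered series of equal coding-exon lengths. Named genes were all members, the references, coding genes between the members, the nearest named flanking genes other genes at least as like a member in exon lengths as the least alike members are (their number alone where over 15), and, per list, the longest, the shortest and those not found. Members and lists were chosen with earlier results of these data known. Genes are not replicates, so no test was made. Code ran in Python 3.11.15 and was tested on simulated data (8 of 8 steps gave the known answer). Alternatives are given with the closing observations. No sequence was printed, because no genome was used here.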

Additional observations from a re-analysis of the deposited data

How the results depend on the processing

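Bounds taken from coding sequence changed the cluster span from 483 to 482 kb, the median gap from 53.35 to 54.3 kb and the median gene length from 10.5 to 10.2 kb. Leaving out each member in turn gave median lengths from 10.4 to 10.7 kb. Counting genes of any biotype raised the unnamed genes between the members from 1 to 2. With all 12 other MMP-named coding genes as references, the ratio of median lengths was 1.49 rather than 1.01. Windows of 0 and 5 kb upstream, and neighbours of any biotype, left 0 members overlapping; 10 kb, added after seeing the data, gave 2 (MMP8 and MMP27). Limits of 3, 4, 5, 6 and 7 shared exon lengths, also added, left 628, 85, 7, 1 and 1 genes in place of 11903. The median of 10 exons and the 8 members found did not change under the alternatives tried. No paired analysis was possible because the annotation belongs to no sample. Reindeer sequence was not analysed here, so whether the order, the gaps or the unnamed gene hold in reindeer was not tested.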

Other observations

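The other MMP genes found by symbol were scattered. Of 15 other MMP symbols looked up, 11 were found, on 8 chromosomes and none on chromosome 15. MMP10, MMP21, MMP23B and MMP26 had no match by symbol, so whether any of them lies in the cluster without a name was not tested. The shortest was MMP19 at 6.28 kb and the longest MMP16, a membrane-type enzyme gene, at 395 kb. A gene named MMP23, outside this list and looked up afterwards, lay on chromosome 16 and held 2.69 kb. The exon lengths of MMP17 and MMP28 shared nothing with any member, and MMP2, MMP9 and MMP15 shared 3.

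Genes whose products act with the clustered enzymes lay elsewhere: no gene of the next 3 lists was on chromosome 15. Of 7 inhibitors and surface regulators, 6 were found, with TIMP1 not matched. RECK, a membrane-anchored inhibitor gene, was the longest at 84.3 kb and TIMP4 the shortest at 6.88 kb, and 2 of the 6 windows overlapped that of another coding gene. All 11 activators and other pericellular proteases were found, from the neutrophil elastase gene ELANE at 3.18 kb to the plasminogen gene PLG at 47.6 kb, and 2 windows overlapped. All 12 substrate genes were found, from AMELX at 7.88 kb to the basement membrane collagen gene COL4A1 at 132 kb, with a median of 48.5 exons against 10 in the clustered genes. No window of the 12 overlapped that of another coding gene. Over all coding genes, 30.1% of windows did, and with lists this small the counts are a description only. AMELX, which encodes the enamel protein amelogenin that MMP20 is known to cut, was on a scaffold outside the numbered chromosomes.

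The symbols of the members depend on how the file is read. Each of the 8 gene records carried 2 name fields, the first with the symbol and the last with the Ensembl identifier. The same form occurred in 20441 of 27607 gene records, and in all 27607 the last name field was the identifier. A reader that keeps the last field would find none of the MMP symbols; which field the study's own processing read was not analysed here.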
